A study of Sus scrofa with 2 samples.

Results

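The genes described here encode subunits of the NMDA receptor (GRIN1, GRIN2A, GRIN2B, GRIN2C and GRIN2D), the isoforms of calcium/calmodulin-dependent protein kinase II or CaMKII (CAMK2A, CAMK2B, CAMK2D and CAMK2G) and neurogranin (NRGN). They were chosen by name, and a gene was taken as measured where a table of Ensembl pig gene IDs and symbols paired its symbol with an ID of the expression table. Of these 10 genes, 6 had such an ID among the 25322 IDs of the table. GRIN2B, GRIN2C and GRIN2D stand for the receptor, and CAMK2A, CAMK2D and CAMK2G stand for the kinase. GRIN1, GRIN2A, CAMK2B and NRGN had no paired ID and were not analysed here.

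RNA was sequenced from the hippocampus of wild-type Rongchang piglets, a Chinese pig breed. One group was a control and the other was given iron dextran, an iron and polysaccharide complex used against iron deficiency in piglets. Each group was 1 sample with 1 value per gene, and each sample's label carries 2 names that may be animals, libraries or runs. The sources used here do not give the dose, route, time after treatment, age in days or how many animals were used. With 1 sample a group no difference below has a replicate check, and no test was made. In bulk tissue, fewer cells of a type and less RNA per cell cannot be told apart.

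As background, the NMDA receptor is a glutamate-gated channel of GRIN1 subunits joined with GRIN2 subunits, and it opens when glutamate and a co-agonist bind while the membrane is depolarised. Calcium that enters binds calmodulin, and calcium-loaded calmodulin switches on CaMKII, which then phosphorylates itself and synaptic targets. In the hippocampus this chain starts long-term potentiation, the strengthening of synapses held to underlie memory. Neurogranin holds calmodulin at rest and frees it when calcium rises.

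In the iron dextran sample the CAMK2A value was higher than in control and the GRIN2B value was lower, while GRIN2D, CAMK2D and CAMK2G were close in both. Levels are in FPKM, which counts sequenced fragments relative to transcript length and to the size of the library, and differences are in log2(FPKM + 1), iron dextran minus control. The added 1 understates the change of low genes. A mean FPKM of 1 or more was required for a gene to be tested for size, which left 12557 genes in all and 5 of the 6 measured members, with GRIN2C below the limit. A gene counted as called from 1.5-fold on this scale. CAMK2A was the 1 member called higher and 0 members were called lower, against 2.47% of all genes called higher and 1.47% called lower. The median of the 5 members was 0.07, and that of all 12557 genes was −0.0046 with quartiles at −0.12 and 0.14.

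GRIN2B (ENSSSCG00000000614) encodes the subunit that prevails early in postnatal life and carries a binding site for CaMKII. It had 1.72 FPKM in control and 0.850 FPKM in iron dextran. The control value was 2.03 times the iron dextran value, and the difference on the log2(FPKM + 1) scale was −0.56, just short of the limit for a call. With a pseudocount of 0.1 in place of 1 the difference was −0.94 and GRIN2B was called lower, together with 2.64% of all genes, while 4.44% were called higher. GRIN2B was low in both samples: 32.7% of the control values above 0 lay below it, and 23.4% of those in iron dextran. Values spread widely at this level. There were 1742 genes with a mean FPKM within 1.5 times that of GRIN2B, and their median difference was 0.07. On the log2(FPKM + 1) scale, 10.05% of them differed by at least as much as GRIN2B in either direction.

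GRIN2C (ENSSSCG00000023151), a subunit best known from cerebellar granule cells and also found in astrocytes, had 0.0667 FPKM in control and 0.491 FPKM in iron dextran. The difference was 0.48 on the log2(FPKM + 1) scale, and the ratio of the FPKM values was 7.36. It was the lowest measured member in each sample, and only 3.51% of the control values above 0 lay below its control value. Of 1129 genes of like level, 12.5% differed by at least as much in either direction on the log2(FPKM + 1) scale. That share does not refer to the ratio of the FPKM values. The 8 markers of cerebellum and thalamus with an ID summed to 42.4 FPKM in control and 36.3 FPKM in iron dextran, and 1 of them was listed at 0 in both samples, GABRA6, named after its values were seen. Of the 8 astrocyte markers with an ID, 4 were above 0 and 4 below, with differences from −0.19 to 0.30 and a median of 0.02. They summed to 3175 FPKM in control and 2947 FPKM in iron dextran, of which GFAP and ALDOC took the larger part. Whether either source bears on the GRIN2C value was not tested.

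GRIN2D (ENSSSCG00000003133), a subunit of slow receptors that in the hippocampus is found mainly in interneurons, had 3.31 FPKM in control and 3.53 FPKM in iron dextran. The difference was 0.07, and 75.7% of 2360 genes of like level differed by at least as much. The interneuron markers GAD1 and GAD2, which make GABA, had 86.1 and 15.6 FPKM in control and 99.2 and 16.9 FPKM in iron dextran. Of the 11 tested interneuron markers, 9 were above 0, 2 were below and 0 were called, with differences from −0.31 to 0.43.

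CAMK2A (ENSSSCG00000014443) encodes the alpha isoform, which is concentrated in excitatory neurons of the forebrain and is required for normal potentiation. It had 1.995 FPKM in control and 3.93 FPKM in iron dextran, a ratio of 1.97 and a difference of 0.72. Of 2266 genes with a mean FPKM within 1.5 times that of CAMK2A, 4.10% differed by at least as much in either direction and 4.19% were 1.5-fold higher. The iron dextran value was above that of control, and the difference was the largest of the 5 tested members. The comparison with genes of like level was added after seeing the data. With 1 sample a group it cannot show whether the step stands out. Of the 8 tested excitatory neuron markers, 2 were above 0, 6 were below and 0 were called, with differences from −0.18 to 0.21. SLC17A7, the vesicular glutamate transporter of these neurons, had 658 FPKM in control and 611 FPKM in iron dextran. Of the 4 tested dentate granule cell markers 3 were above 0, with differences from −0.0633 to 0.50, and of the 8 tested CA pyramidal cell markers 3 were above 0, with differences from −0.35 to 0.38. The part of these cells in the CAMK2A value was not tested.

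CAMK2D (ENSSSCG00000009123), the delta isoform, present in heart and many other tissues as well as brain, had 17.8 FPKM in control and 19.3 FPKM in iron dextran, a difference of 0.11. CAMK2G (ENSSSCG00000010311), the gamma isoform, which carries calmodulin to the nucleus in excitatory neurons, had 28.7 and 29.4 FPKM, a difference of 0.03. Of the genes at the level of each, 49.4% differed by at least as much as CAMK2D and 83.1% by at least as much as CAMK2G.

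**Figure D1:**
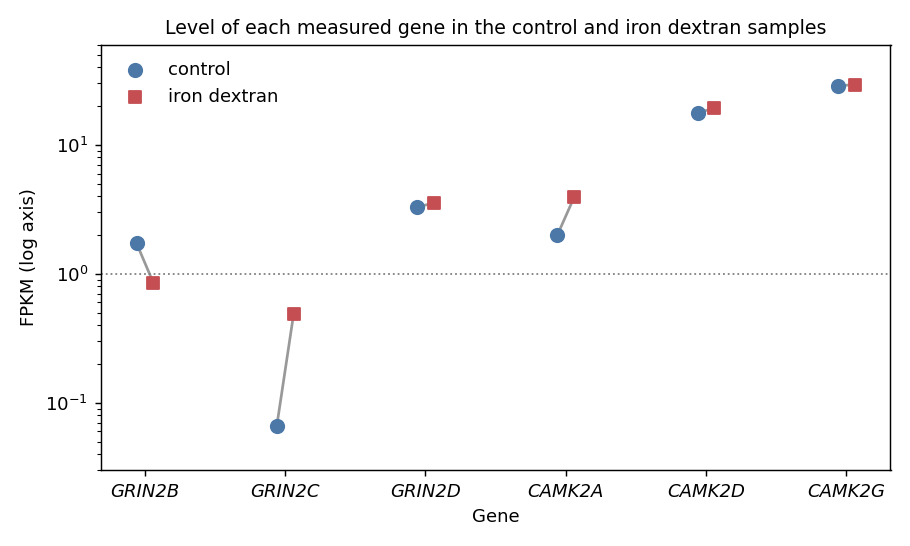
FPKM (vertical log axis) of the 6 measured genes in the control sample (circles) and the iron dextran sample (squares), with a line joining the values of a gene and a dotted line at 1 FPKM. GRIN2B is the 1 gene with the square below the circle, and CAMK2A and GRIN2C have the squares farthest above.

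The order of levels was the same at the top in both samples. CAMK2G had the highest FPKM of the 6 genes, followed by CAMK2D. In control the next were GRIN2D, CAMK2A, GRIN2B and GRIN2C, and in iron dextran CAMK2A stood above GRIN2D. No spread over samples exists to say which neighbours in this order differ. CAMK2G was at 14.4 times the level of CAMK2A in control and at 7.47 times in iron dextran. In the forebrain CAMK2A is generally held to be among the most abundant kinases. FPKM depends on how complete the gene model is, and which gene models were used is not stated in the labels. Whether that sets the value of CAMK2A or of GRIN2B was not tested.

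**Figure D2:**
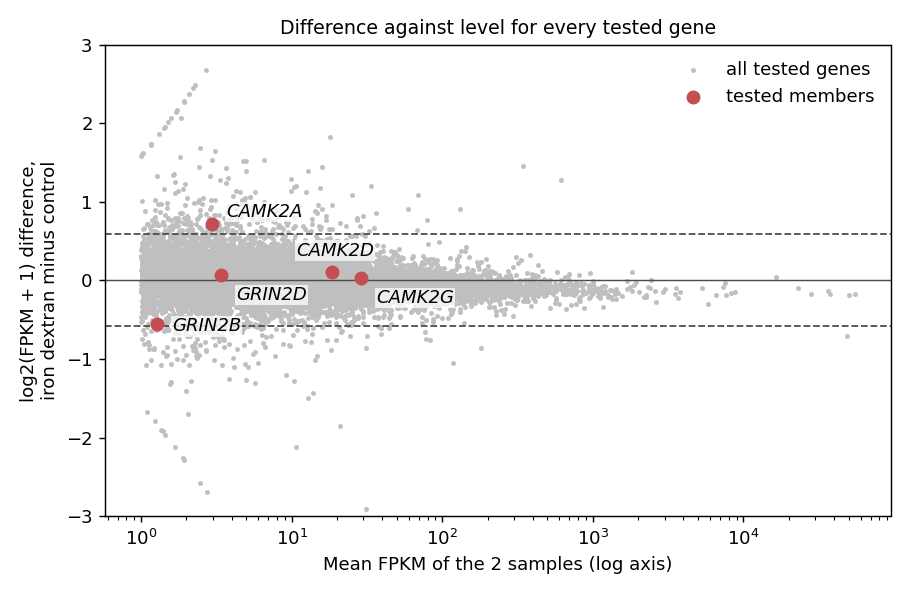
Difference in log2(FPKM + 1), iron dextran minus control (vertical), against the mean FPKM (horizontal log axis) for the 12557 tested genes in grey and the 5 tested members in red, with dashed lines at 1.5-fold and 33 genes beyond 3 log2 units not drawn. CAMK2A lies above the upper line, GRIN2B just inside the lower one, and the cloud is widest at low levels where both of them lie.

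Shares within a sample do not move with the scaling of a library, but they depend on how complete each gene model is. Among the measured GRIN2 subunits, GRIN2B made up 33.8% of their summed FPKM in control and 17.4% in iron dextran. GRIN2D made up 64.9% and 72.5%, and GRIN2C 1.31% and 10.1%. The summed value itself was 5.10 FPKM in control and 4.87 FPKM in iron dextran, so the make-up differed more than the total. These shifts in share rest on low values. GRIN2B had 1.72 and 0.850 FPKM and was not called, and GRIN2C had 0.0667 and 0.491 FPKM and was not tested. GRIN2D was close in both samples, at 3.31 FPKM in control and 3.53 FPKM in iron dextran. The lower GRIN2B value raises the GRIN2D share, while the higher GRIN2C value lowers it. No replicate exists to say whether the make-up differs. GRIN2A, the subunit that replaces much of GRIN2B as the brain matures, is not part of these shares. GRIN2D was at 1.92 times the level of GRIN2B in control and at 4.16 times in iron dextran.

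Among the measured CaMKII genes, CAMK2A made up 4.12% of the summed FPKM in control and 7.48% in iron dextran. CAMK2D held 36.7% and 36.6%, and CAMK2G 59.2% and 55.9%. The sum was 48.5 FPKM in control and 52.6 FPKM in iron dextran, a ratio of 1.09. The ratio of CAMK2D to CAMK2G was 0.619 in control and 0.655 in iron dextran, so these more widely expressed isoforms kept nearly the same proportion. CAMK2B, the beta isoform that ties the kinase to actin, is missing from these shares. The low share of CAMK2A is subject to the same limit of the gene models, which was not tested.

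**Figure D3:**
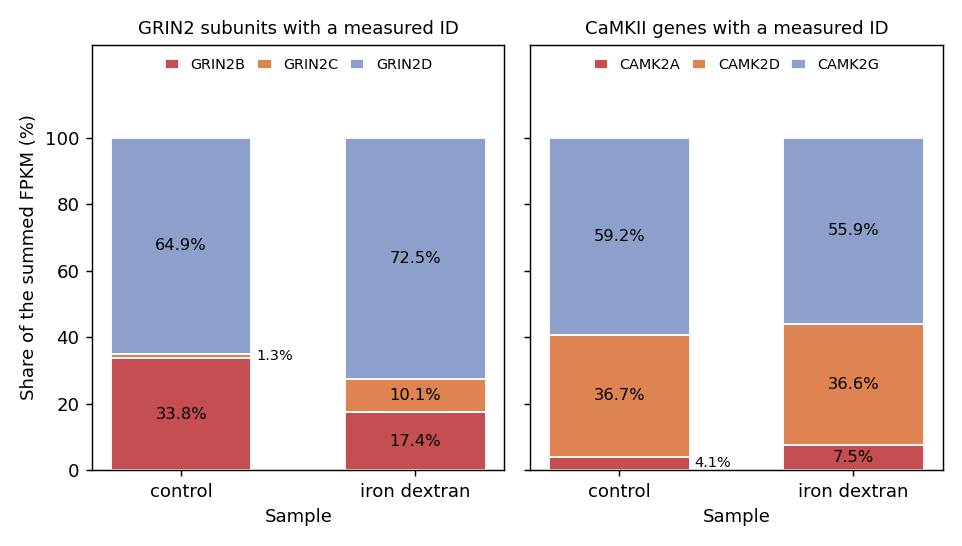
Share of the summed FPKM in percent (vertical) held by the 3 measured GRIN2 subunits (left) and the 3 measured CaMKII genes (right) in each sample. GRIN2B goes from 33.8% of the control bar to 17.4% of the iron dextran bar, and CAMK2A from 4.12% to 7.48%.

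No other tested gene of the pathway lists was past 1.5-fold. In 6 lists of NMDA-related, co-agonist, scaffold, calmodulin, kinase and effector genes, 68 of 93 listed genes had an ID and 62 were tested. Of these, 0 were called higher and 0 lower, against 2.47% and 1.47% of all genes, shares at which few calls fall in a set of this size. In all, 26 were above 0 and 36 below, and the median was −0.0181.

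For further subunits, GRIN3A, which lowers calcium entry when it joins the receptor, had 0.620 FPKM in control and 0.887 FPKM in iron dextran. GRIN3B had 0.567 and 0.627 FPKM. Both were below a mean FPKM of 1. Of the 8 tested genes of receptor trafficking and accessory proteins, 3 were above 0 and 5 below. Co-agonist supply was covered by 5 tested genes, 2 above 0 and 3 below. Among them PHGDH, the first enzyme of serine synthesis, had 81.3 FPKM in control and 71.7 FPKM in iron dextran. DAO, which degrades D-serine, had low values of 0.113 and 0.178 FPKM.

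The scaffolds that hold NMDA receptors at the synapse had the narrowest range of the 6 lists, with 14 tested genes between −0.0955 and 0.20. DLG4, which encodes PSD-95 and binds the tail of GRIN2 subunits, had 69.5 FPKM in control and 70.6 FPKM in iron dextran. DLG1, DLG2 and DLG3, its relatives, had 5.57, 13.1 and 27.6 FPKM in control and 5.68, 14.7 and 26.7 FPKM in iron dextran. The CaMKII-binding scaffold LRRC7, or densin-180, had 4.56 and 4.46 FPKM. The ratio of GRIN2B to DLG4 was 0.0248 in control and 0.0120 in iron dextran.

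Calmodulin, the activator of the kinase, was abundant and even. CALM2 and CALM3 had 1956 and 1691 FPKM in control and 1934 and 1686 FPKM in iron dextran. These genes encode the same protein, and values of near copies depend on how shared reads were assigned. CAMK2N1, an inhibitor protein of CaMKII, had 375 FPKM in control and 314 FPKM in iron dextran, a difference of −0.26. It was at 13.1 times the level of CAMK2G in control and at 10.7 times in iron dextran. PPP3CA, a catalytic subunit of the calmodulin-activated phosphatase calcineurin, which opposes the kinase in long-term depression, had 31.1 and 43.0 FPKM, a difference of 0.45. It was the highest difference of the 10 tested calmodulin partners and was not called. PPP1R9B, or spinophilin, which brings protein phosphatase 1 to spines, had 162 and 153 FPKM.

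Related kinases showed no common direction, with 3 of 9 above 0 and 6 below. CAMK1 had 34.1 FPKM in control and 36.5 FPKM in iron dextran, and the kinase-like vesicle protein CAMKV had 165 and 162 FPKM. The upstream kinases CAMKK1 and CAMKK2 had 24.5 and 92.8 FPKM in control and 24.5 and 79.5 FPKM in iron dextran. Downstream of the receptor, 6 of 16 tested genes were above 0 and 10 below. FYN and SRC, which phosphorylate GRIN2 subunits, had 212 and 17.7 FPKM in control and 196 and 17.2 FPKM in iron dextran. PTPN5, or STEP, which removes that phosphate, had 36.6 and 32.6 FPKM. RASGRF1, a Ras activator that binds GRIN2B, had 23.4 and 27.9 FPKM, a difference of 0.24. NOS1 and ADCY1, which answer to calcium entry, had 1.45 and 3.91 FPKM in control and 1.52 and 3.77 FPKM in iron dextran.

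**Figure D4:**
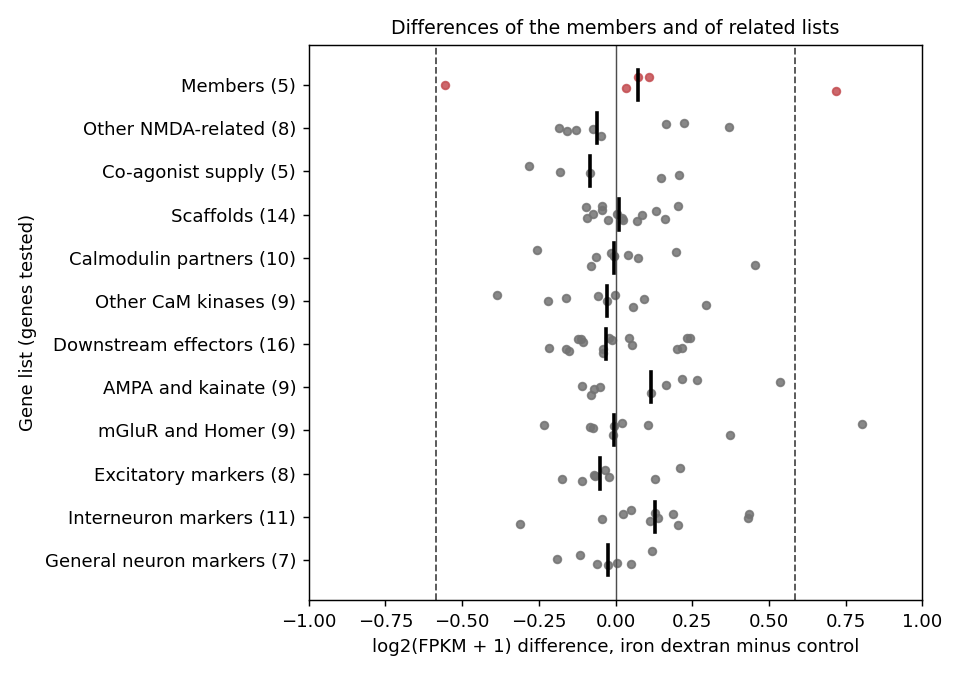
Difference in log2(FPKM + 1), iron dextran minus control (horizontal), for each tested gene of the members (red) and of related and neuronal marker lists (grey), with bars at the medians, dashed lines at 1.5-fold and the number of tested genes in brackets. CAMK2A and, in the list of metabotropic receptors, GRM5 are the genes beyond a dashed line, and GRIN2B lies farthest to the left.

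Among other glutamate receptors, GRM5 was called higher and no other gene was called. Of 9 AMPA and kainate receptor subunits, 5 were above 0, 4 were below and 0 were called, with a median of 0.12. GRIA1 had 51.2 FPKM in control and 57.4 FPKM in iron dextran, and GRIA2, which makes AMPA receptors impermeable to calcium, had 14.6 and 21.6 FPKM, a difference of 0.54. Of 9 tested metabotropic receptors and Homer scaffolds, 1 was called higher, GRM5, which is coupled to the NMDA receptor through Homer and SHANK proteins. GRM5 had 3.09 and 6.14 FPKM, a difference of 0.80. GRM5 and CAMK2A were the genes called among the members and the 80 tested genes of all 8 related lists. Of all genes, 2.47% were called higher and 1.47% lower. At these shares a few calls fall in a set of this size, so the calls do not set these lists apart. GRIN2B lay in the opposite direction from GRIA2 and GRM5.

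Markers of hippocampal neurons were present in both samples, though not every one. Of 9 CA pyramidal cell markers with an ID, 8 had a mean FPKM of 1 or more, and their sum was 185 FPKM in control and 189 FPKM in iron dextran. Of 7 dentate granule cell markers with an ID, 4 did, and 1 was listed at 0 in both samples. The 7 general neuron markers summed to 3718 FPKM in control and 3581 FPKM in iron dextran, with 0 called. The 11 interneuron markers summed to 832 and 841 FPKM, with 9 above 0 and 0 called. The 7 dentate granule cell markers summed to 72.7 and 80.9 FPKM, with 0 called. The 7 microglia markers were all above 0, with sums of 98.4 FPKM in control and 125.5 FPKM in iron dextran and 1, P2RY12, called higher (9.80 and 20.05 FPKM). The 6 oligodendrocyte markers with an ID summed to 9792 and 8610 FPKM, with 5 of 6 below 0. In the other lists 0 genes were called, with 8 tested markers of CA pyramidal cells (median −0.0714), 5 of oligodendrocyte precursors (−0.13), 6 of endothelium and pericytes (−0.13), 2 of choroid plexus and ependyma (−0.0988) and 5 of cerebellum and thalamus (−0.20). The part of these shifts in the values of CAMK2A, GRIN2B and GRIN2C was not tested.

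The column totals were 924070 FPKM for control and 850165 FPKM for iron dextran, and how many fragments were sequenced is unknown. Among 281 genes with a control value under 0.05 FPKM and above 0 in both samples, 61.6% of the ratios lay at steps of whole fragments (within 0.05 log2 units of 0.5, 1 or 2 times a common value) and the rest did not. Read from that common value, which was taken at the peak of the same ratios, the depth in iron dextran was about 1.06 times that in control. The steps were too broad to recover counts for the members, so no counting interval is given.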

How the data were processed

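Hippocampal RNA of 1 control and 1 iron dextran sample was analysed. The authors deposited 1 FPKM table with a row per Ensembl pig gene ID and columns A and B, matched to the samples by the letter in their titles. The submitters' processing notes name cutadapt 1.2.1, TopHat, Sscrofa10.2 and susScr3. The FPKM program and annotation are not named there, nor is the use of strand, so antisense or overlapping reads may be included. A table of IDs and symbols matched 11804 of 25322 IDs; no coordinates, lengths or sequences were used.

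Differences were computed with pandas 2.3.3 on log2(FPKM + 1), and genes of a mean FPKM of 1 or more were called from 1.5-fold. Genes of like level have a mean FPKM within 1.5 times that of a member. All members were reported, with a set list of genes from 8 related and 12 marker lists and any further list gene that was called; a few of these are not reported here. The members and lists were chosen with earlier results of these data known. The comparison with genes of like level was added after seeing the data. The code was checked on simulated data. Alternatives are given in the closing section.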

Additional observations from a re-analysis of the deposited data

How the results depend on the processing

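Directions of the 5 tested members and of their median were the same under every alternative that gave them a value. CAMK2A stayed between 0.66 and 0.98 and was called at 1.5-fold in each, GRIN2B ranged from −1.01 to −0.50, GRIN2D from 0.0159 to 0.17, CAMK2D from 0.10 to 0.22, CAMK2G from 0.0243 to 0.15, and the median from 0.0655 to 0.17. The counts moved with the limit on low values, the size rule, the pseudocount, the same column total and centring on genes of like level. Members called higher were 0 at a mean FPKM of at least 5, where CAMK2A is not tested, and 0 at 2-fold. Members called lower were 1, GRIN2B, with pseudocounts of 0.1 (−0.94) and 0.01 (−1.01), 1 with the size rule lowered to a 25% difference, and 1 when centred on genes of like level (−0.62), an alternative chosen after seeing the data. Genes of the related lists called higher were 0 at a mean FPKM of at least 5, 0 at 2-fold, and 2 with the same column total, GRM5 and GRIA2. The lower size rule of a 25% difference was, for these lists, also chosen after seeing the data. With it 5 were called higher (GRIA2, GRM5, GRM8, LIN7C and PPP3CA) and 1 lower (DAPK2). Shares of all genes called are given only for 1.5-fold with pseudocounts of 1 and 0.1. Counts under the other settings, for members and related lists, have no such share beside them and are not read as results about these genes. Summing IDs that share a symbol left the shares of the 6 measured members as they were, and just 1 symbol of the table has several IDs. No paired analysis was possible because each group is 1 sample, and leaving out a replicate could not be run for the same reason. Without counts, how far depth limits the values near 1 FPKM is unknown.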
